A study of Mus musculus and Homo sapiens with 20 samples.

Results

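Open chromatin near the genes for the proteins of the cytosolic ribosome was followed across 12 ATAC-seq libraries of mouse hepatocytes. ATAC-seq uses the transposase Tn5 to insert sequencing adapters into open DNA, so tags collect where chromatin is accessible. Peaks of the 12 libraries that shared 1 bp or more were joined, and the merged region was taken as a member when its nearest protein-coding gene body, within 10 kb, had a ribosomal protein symbol (Rpl or Rps and a number, with an optional a, x or y). The rule used symbols and positions only, and no measured value beyond the presence of a peak. It found 886 of 642948 merged regions, near 72 of the 72 genes with such a symbol (43 of the large subunit, Rpl, and 29 of the small subunit, Rps). Of these regions 187 had a peak in all 12 lists and could be tested, out of 101575 such regions in the whole series, and 71 of the 72 genes had at least 1 of them.

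Ribosomes translate messenger RNA, and each carries 1 copy of nearly every ribosomal protein, so these genes are transcribed strongly in most cell types. Their promoters are known for a broadly open, nucleosome-poor start, for binding sites of ETS-family, SP1 and YY1 factors, and for a pyrimidine-rich initiator that also marks the messenger RNA for control of translation by the kinase mTOR. In hepatocytes, which secrete much of the plasma protein, the translation machinery is a large expense of the cell, and its genes serve often as a housekeeping reference.

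The 4 groups held 3 libraries each, all of floxed-Ahr hepatocytes labelled 4 weeks. Ahr encodes the aryl hydrocarbon receptor, a ligand-activated transcription factor. The groups were control with Ad_Cont, B2_minus with Ad_Cont, control with Ad_Cre and B2_minus with Ad_Cre, where B2_minus stands for vitamin B2 (riboflavin) deficiency. The labels do not spell out Ad, and Cre is the recombinase that removes DNA between loxP sites. Whether the 3 libraries of a group are 3 animals or 3 cultures is not labelled, so the p-values speak of the spread among these libraries, which may be technical. The other 8 libraries of the series came from the human line HepG2 and were not used here.

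The lists held 200698 to 281141 peaks and 3897632 to 5557678 tags per library, and no site below 6 to 8 tags was listed in any of them. The sequencing depth is unknown. The 7 regions near Ahr with a peak in all 12 lists gave 0 calls in every contrast (edgeR), with 0 to 2 of them at an unadjusted p under 0.05; the position of the floxed part is not given, so this is no check of the deletion. Regions were listed near all 10 hepatocyte markers, among them Alb and Hnf4a, near all 6 endothelial, 5 of 6 stellate cell and 4 of 5 cholangiocyte markers, while 4 of 6 Kupffer cell and macrophage markers (Adgre1, Clec4f, Ptprc and Laptm5), Dcn of the stellate cell list and Krt19 of the cholangiocyte list had no region in all 12 lists.

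The promoters of the genes the results turn on are shown first, because the accessible regions lie over them. RefSeq sequences on mm10 (assembly GRCm38.p6) were given for 53 of the 72 genes. Each line runs 5′ to 3′ on the gene's strand from 100 bases before the annotated start through the first 20 bases of the transcript, and for Rpl10 from 250 bases before it. Capitals mark CCGGAAG, the core of ETS-family sites, and GGGCGG, the core of SP1 sites, on either strand. Rps21, Rpl37 and Rps19 are shown as the most accessible starts, Rpl41 for its low spread, Rps6, Rpl11 and Rpl38 for their roles, and Rpl10 because its upstream region passed the test.
Rps21, chr2:180257279-180257398, plus strand: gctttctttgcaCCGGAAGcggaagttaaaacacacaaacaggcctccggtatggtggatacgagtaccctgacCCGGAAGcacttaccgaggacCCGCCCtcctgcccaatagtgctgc
Rpl37, chr15:5116513-5116632, plus strand: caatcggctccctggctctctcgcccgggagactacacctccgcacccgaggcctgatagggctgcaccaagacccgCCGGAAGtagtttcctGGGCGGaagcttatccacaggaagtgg
Rps19, chr7:24884492-24884611, plus strand: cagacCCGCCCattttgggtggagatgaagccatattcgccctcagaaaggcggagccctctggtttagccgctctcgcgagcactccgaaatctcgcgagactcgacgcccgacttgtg
Rpl41, chr10:128549149-128549268, minus strand: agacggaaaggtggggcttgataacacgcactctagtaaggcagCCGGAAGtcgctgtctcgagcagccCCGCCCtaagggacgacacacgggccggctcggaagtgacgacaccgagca
Rps6, chr4:86857348-86857467, minus strand: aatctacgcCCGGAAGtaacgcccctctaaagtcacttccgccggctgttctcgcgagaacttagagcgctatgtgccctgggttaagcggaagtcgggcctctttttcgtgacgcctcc
Rpl11, chr4:136053374-136053493, minus strand: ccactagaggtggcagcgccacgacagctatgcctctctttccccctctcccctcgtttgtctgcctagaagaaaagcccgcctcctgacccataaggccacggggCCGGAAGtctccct
Rpl38, chr11:114668480-114668599, plus strand: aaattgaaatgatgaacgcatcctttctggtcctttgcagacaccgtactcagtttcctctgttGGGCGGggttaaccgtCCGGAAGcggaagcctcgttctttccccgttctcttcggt
Rpl10, chrX:74270566-74270835, plus strand: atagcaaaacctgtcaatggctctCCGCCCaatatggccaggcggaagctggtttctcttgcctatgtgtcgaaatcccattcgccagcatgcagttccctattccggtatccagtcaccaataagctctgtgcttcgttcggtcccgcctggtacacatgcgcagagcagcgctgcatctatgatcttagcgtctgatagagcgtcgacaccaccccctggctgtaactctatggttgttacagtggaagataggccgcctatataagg

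Over whole promoter windows of 250 bases before to 50 after the start, CCGGAAG or its reverse complement stood in 39.6% of the 53 genes (21 of them), against 9.93% of the 27025 genes in the table. GGGCGG stood in 31 of the 53 genes (58.5%), against 38.2% of all genes. The YY1 string AAGATGGC was in 5 of 53 (9.43%, against 3.19% of all), and the TATA box string TATAAA also in 5 (9.43%, against 15.7%). CTTT, a core of the pyrimidine initiator, lay on the gene's strand between 5 bases before and 10 after the annotated start in 13 of 53 genes (24.5%, against 6.58% of all), and its reverse complement AAAG lay there in 2 (3.77%, against 6.18%). No string contains another, though matches of CCGGAAG and GGGCGG, on either strand, can share edge bases. A match is a description of letters and not of binding.

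The strongest region of a gene is here the 1 with the highest mean over the 12 libraries, and at most genes with an annotated start it held that start. It was seldom the only one: 17 genes had a single region in all 12 lists, and other regions reached 95.1 scaled tags. In control with Ad_Cont the strongest regions summed to a mean of 4671 scaled tags, of 7240 over all member regions. Values are scaled tags, the highest peak count of a region in a library divided by the library's relative TMM size. Of the 71 strongest regions 55 overlapped an end of the gene body, 8 lay inside the gene and 8 outside it. Of the 52 strongest regions whose gene had an annotated start in the promoter table, 43 held that start. Their centres lay a median of 46.5 bp upstream of it (quartiles 85.5 bp upstream and 16 bp upstream), and 36 of the 43 were centred upstream.

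The strongest regions had a median of 65.3 scaled tags and a median width of 293 bp. Their median level stood at the 90.7th percentile of all 101575 regions, 70 of the 71 were above the median of all regions, and 39 were in the top 10%. The strongest region of a gene was chosen for its level, so this is a description. The other 116 member regions had a median of 16.7 tags, below the median of 23.3 over all regions tested. Large and small subunit genes had much the same level, with medians of 65.1 (43 genes) and 67.3 tags (28 genes). The 4 genes on the X chromosome had a median of 46.2 tags, against 66.1 for the 67 on autosomes; the difference was not tested.

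Among the highest genes were Rps21, Rpl37, Rps19 and Rpl27a. At the start of Rps21, a small subunit gene (chr2:180257024-180257467), the 12 libraries gave a mean of 111.9 scaled tags with an SD of 6.78, from 101 to 126. Rpl37 (chr15:5116312-5116679), whose region ties with Card6 for the nearest gene, had 107 ± 5.84 (SD, n = 12). Rps19, whose loss causes Diamond-Blackfan anaemia in people, had 100.2 ± 6.74 (chr7:24884321-24884606), and Rpl27a 97.3 ± 6.47 (chr7:109518908-109519180). All 4 stood at percentiles 98.8 to 99.8 of all regions. Rps21 differed from Rpl37, and Rps19 from Rpl27a, by less than the larger SD of the pair.

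The lowest genes were Rpl15, Rpl4, Rps27a, Rpl37a and Rps4x. Rpl4 (chr9:64173272-64173699) had 25.4 ± 3.10 tags (SD, n = 12) and Rps27a, which encodes ubiquitin fused to a small subunit protein, 26.6 ± 6.16 (chr11:29547175-29548061, tied with Clhc1). Rpl37a had 33.4 ± 3.10 (chr1:72710737-72711393) and the X-linked Rps4x 34.1 ± 5.22 (chrX:102189222-102189507). These 4 stood at percentiles 54.6 to 68.0, so even they were above the median region.

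Rpl15 stood apart at 9.30 ± 2.13 tags at percentile 1.02, and the rule gave the open region beside its start to a neighbour. The region listed in all 12 libraries for Rpl15 was a weak one inside the gene (chr14:18269259-18270007). That open region, just outside Rpl15 (chr14:18271020-18271256), had 99 to 130 unscaled tags in the 12 lists, overlaps the body of Nkiras1 and was counted there. Another site of Rpl15, chr14:18270448-18270894, was listed in 11 libraries at 19 to 28 tags and not in B2_minus with Ad_Cre 2.

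Rps25 was the only gene with no region in all 12 lists. Its start (chr9:44407488-44407738), which ties with Trappc4, was listed in 10 libraries at 40 to 55 unscaled tags and was missing from control with Ad_Cont 2 and B2_minus with Ad_Cont 1. In those libraries the next region, inside Trappc4 (chr9:44406967-44407472), was listed at 65 and 61 tags, near the 48 to 67 of the other libraries. The tags at the unlisted site in those libraries are not known. Of the 886 member regions, 27 (3.05%) were listed in 6 to 11 libraries with a median of 20 or more tags where listed, against 0.820% of all regions. These 27 were left untested. Members also had a peak in all 12 lists more often (21.1%, against 15.8% of all regions), and the shares were not compared at an equal level.

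**Figure D1:**
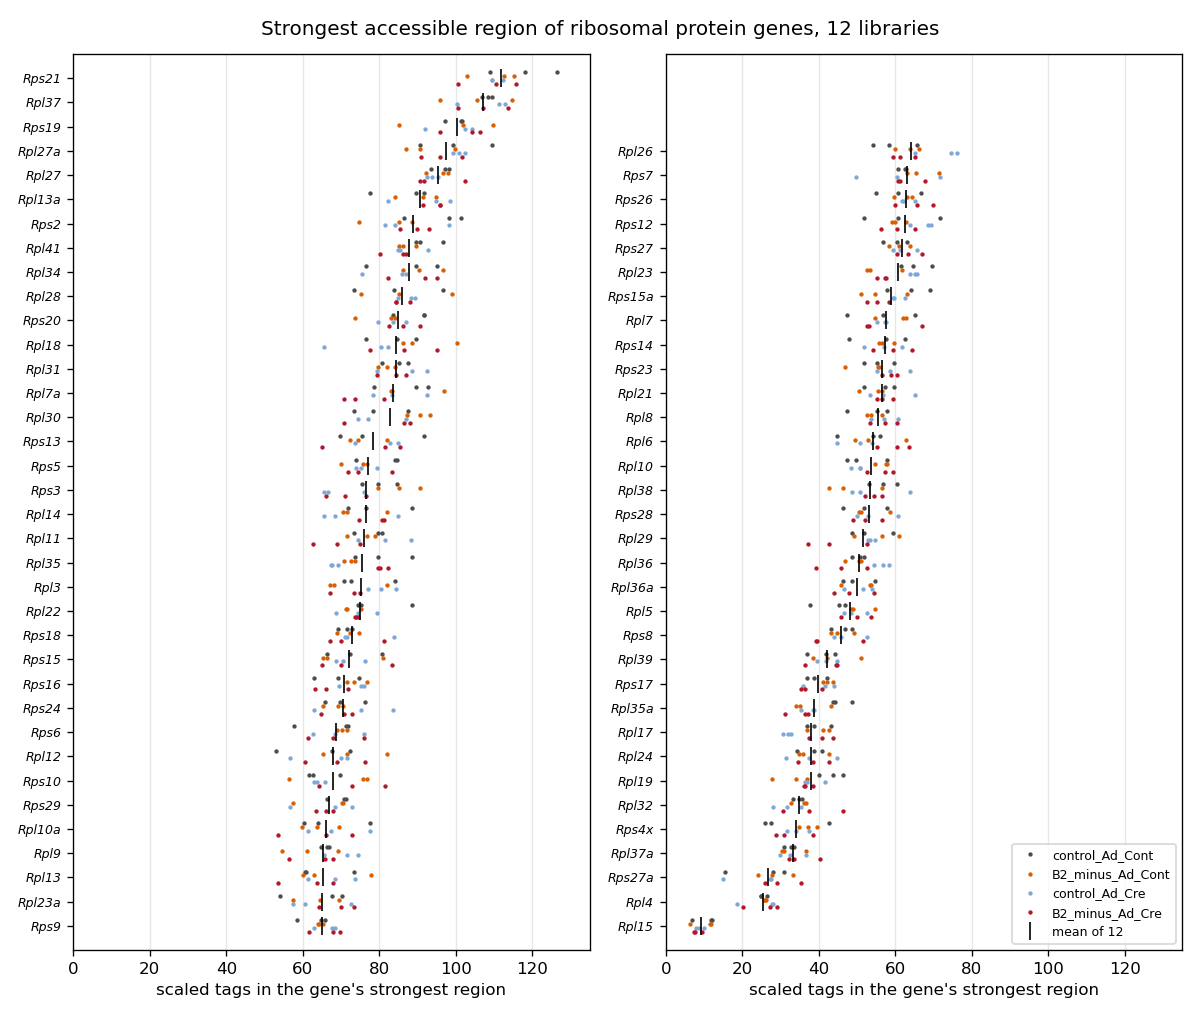
Scaled tags (x axis) in the strongest region of 69 of the 71 ribosomal protein genes (rows, ordered by mean, highest at the upper left), with 1 point per library coloured by group and a bar at the mean of 12. The colours are interleaved in nearly every row, from Rps21 at 111.9 down to Rpl15 at 9.30.

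Genes chosen for their roles had no contrast past the test in their strongest regions (edgeR). The diet groups of Rpl5 and Rpl35a did not overlap with Ad_Cont, nor those of Rpl3 and Rpl10 with Ad_Cre. How often such groups of 3 libraries fail to overlap over all regions was not counted, so this only describes these genes. Rps6, the small subunit protein phosphorylated by S6 kinase below mTOR, had 66.9 ± 7.98 scaled tags in control with Ad_Cont, 70.3 ± 1.27 in B2_minus with Ad_Cont, 69.0 ± 6.75 in control with Ad_Cre and 68.5 ± 7.43 in B2_minus with Ad_Cre (mean ± SD, n = 3 each; chr4:86857252-86857540). Rpl5, which with Rpl11 binds the p53 regulator Mdm2, had 43.3 ± 4.83, 50.7 ± 3.45, 49.3 ± 2.99 and 49.8 ± 3.87 in the same order (chr5:107900360-107900657). Rpl11 had 77.9 ± 3.92, 75.8 ± 3.71, 81.4 ± 6.87 and 68.9 ± 6.27 (chr4:136053297-136053592).

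For Rpl11 the 3 libraries of B2_minus with Ad_Cre, at 75.1, 69.0 and 62.6, overlapped the 3 of control with Ad_Cre, at 88.2, 81.5 and 74.5. The difference of -0.24 on the log2 scale (SE 0.091) did not pass the test (edgeR adjusted p 0.196). Rpl35a, another gene of Diamond-Blackfan anaemia, was highest in control with Ad_Cont, at 44.2, 43.8 and 48.6 scaled tags, against 34.0, 35.2 and 43.1 in B2_minus with Ad_Cont (chr16:33056313-33056566, tied with Iqcg). Those groups did not overlap, and their difference of -0.29 on the log2 scale (SE 0.14) did not pass the test (edgeR adjusted p 0.357). Averaged over both Ad arms the difference was -0.19 (SE 0.10; edgeR adjusted p 0.270). Rps19 had 100.1 ± 2.46, 99.0 ± 12.6, 99.6 ± 6.69 and 102 ± 5.61 tags in the 4 groups.

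Rpl3, a protein at the peptidyl transferase centre, had 75.2 ± 6.43 tags over the 12 libraries (chr15:80083259-80083540). Rps14, tied by its loss to a form of myelodysplastic syndrome, had 57.3 ± 4.68, and Rpl38, needed for translation of certain Hox messenger RNAs, 53.5 ± 5.95 (chr11:114668426-114668709). Rpl10, which helps complete the large subunit, had 53.7 ± 4.21 in its strongest region, 798 bp upstream of the start by its centre (chrX:74269523-74270513). In none of these did a diet or Ad contrast pass the test.

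The spread over the 12 libraries, all groups together, fell with the level. Among the least variable strongest regions were those of Rpl27 (95.3 ± 3.43 tags, a coefficient of variation of 3.60%; chr11:101442110-101442443), Rpl41 (4.83%; chr10:128549072-128549372), Rps27 (4.84%; chr3:90213594-90213877) and Rps9 (4.87%; chr7:3703868-3704168). The 12 libraries of Rpl27 lay between 90.7 and 102 scaled tags. The most variable were Rps27a (23.1%), Rpl15 (22.9%), Rps4x (15.3%), Rpl35a (13.0%) and Rpl32 (12.9%; chr6:115808923-115809209), with mean levels of 9.30 to 38.9 tags.

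At an equal level, ribosomal protein regions varied about as much as any other region. Between 60 and 80 scaled tags the median coefficient of variation was 8.78% for 29 member regions and 8.69% for all 7564 regions. Between 80 and 100 it was 6.79% for 14 and 7.06% for 3415, and between 40 and 60 it was 9.32% for 23 and 11.2% for 14124. The low spread of strong member regions was thus shared by other regions of that level.

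In 169 of the 187 member regions (90.4%), as in 81.1% of all regions, the variance over the 12 libraries was below the mean, which is the variance of Poisson counts. How the peak heights were counted is not given in the sources used here. The calls below come from a fit that lets the variance fall below Poisson, and the fit that does not made no call among the members. That bounded fit also made fewer calls over all regions.

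**Figure D2:**
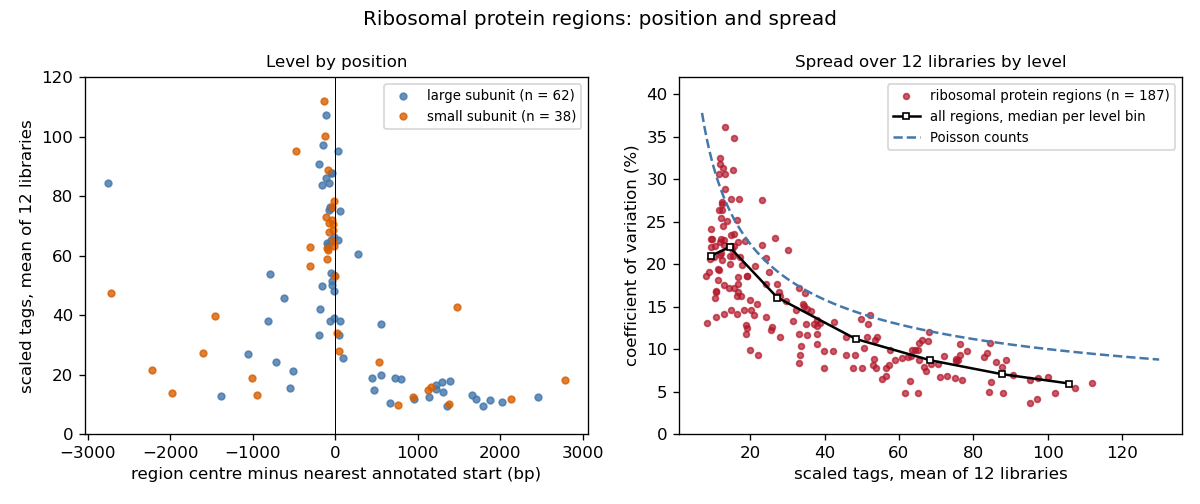
Left, mean scaled tags of member regions (y axis) against the distance of the region's centre from the nearest annotated start in bp (x axis), for the regions within 3000 bp; right, coefficient of variation over 12 libraries in percent against mean scaled tags. The high regions gather just upstream of the start, and the members scatter around the median line of all regions, mostly under the dashed Poisson line.

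As a housekeeping reference, the member regions tracked the TMM size closely. TMM was computed over all tested regions, the members included, so a close match is partly built in. Summed over the 187 regions, the scaled tags were 7240 ± 85.1 in control with Ad_Cont, 7184 ± 152 in B2_minus with Ad_Cont, 7188 ± 64.0 in control with Ad_Cre and 7144 ± 134 in B2_minus with Ad_Cre (mean ± SD, n = 3 each). The 12 sums ran from 7011 to 7308, with a coefficient of variation of 1.45%, and the 4 groups overlapped. The groups' means differed by less than the SD of B2_minus with Ad_Cont. Such steadiness was not particular to the members. Over the 12 libraries the sums near mitochondrial ribosomal protein genes ran from 7410 to 7620. Those near ribosome biogenesis genes ran from 4581 to 4728, and those near translation factors from 5333 to 5605.

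A library size taken from the member regions alone was 0.976 to 1.02 times the TMM size in the 12 libraries. A size taken from all listed tags was 0.941 to 1.07 times the TMM size. It was high in control with Ad_Cre, at 1.06, 1.07 and 1.07, and low in B2_minus with Ad_Cont, at 0.941, 0.970 and 0.972, and these groups did not overlap. The control with Ad_Cre lists were also among the longest, with 254160, 278590 and 281141 peaks; the part of list length in this difference was not tested.

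**Figure D3:**
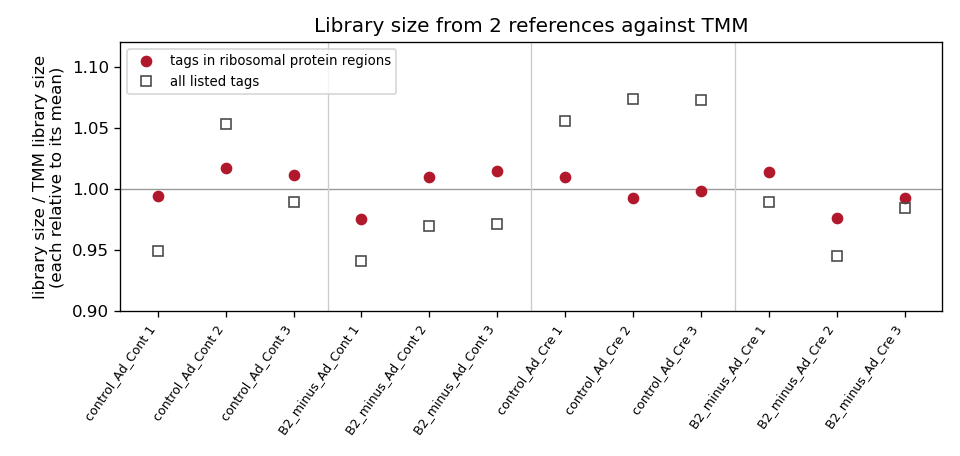
Library size relative to the TMM size (y axis) in each of the 12 libraries (x axis, grouped), taken from the tags in ribosomal protein regions (filled circles) or from all listed tags (open squares). The circles stay between 0.976 and 1.02, and the squares of control with Ad_Cre sit at 1.06 to 1.07.

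Scaling by the member regions left the series' diet calls close to those with TMM. Averaged over both Ad arms, 2874 regions were higher and 3053 lower in B2_minus with the member scaling, 5.84% of all regions, against 2484 and 3383, or 5.78%, with TMM. With listed tags the same contrast gave 9753 higher and 1998 lower, 11.6% of all regions. With Ad_Cont the member scaling called 0.967% of regions and TMM 1.04%, and with Ad_Cre 1.03% and 1.13%, where listed tags called 4.49%. Under listed tags the median log2 fold change of all regions moved from 0.0032 to 0.14 for the diet with Ad_Cre, so higher and lower calls of that scaling include this shift.

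B2_minus and control differed little at ribosomal protein regions. Averaged over both Ad arms, 3 of 187 member regions passed the threshold (edgeR adjusted p under 0.05), 1 higher and 2 lower, which is 1.60% against 5.78% of all regions. At an unadjusted p under 0.05 there were 15 members, 8.02% against 19.7%. None of the 3 was the strongest region of its gene. The median log2 fold change was -0.017 over the members and 0.0049 over all regions, and 170 of the 187 (90.9%) lay within 0.25 of 0. Regions of any gene that overlap a gene end, as many of the members do, also had fewer calls than all regions: 3.36% of 9874 passed, and 91.6% lay within 0.25 of 0. Of the 64 members overlapping a gene end 1 passed (1.56%). In bulk libraries, more cells with an open site and a more open site in each cell cannot be told apart.

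With Ad_Cont, 1 member was called, lower in B2_minus, 0.535% against 1.04% of all regions, and 12 had an unadjusted p under 0.05 (6.42% against 13.2%). With Ad_Cre edgeR called 0 members, against 1.13% of all regions, and 14 had an unadjusted p under 0.05 (7.49% against 13.4%). There limma also called 0 members, with 255 of all regions higher and 535 lower. DESeq2 called 0 of all regions in both arms, so its 0 says nothing of the members. The median log2 fold changes of the members were -0.014 with Ad_Cont and -0.016 with Ad_Cre.

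Levels near markers of other liver cells also differed with the diet. In the diet average, where edgeR called 5.78% of all regions, it called 2 regions higher and 1 lower of 29 near endothelial markers, all 3 at Stab2, 2 lower of 17 near stellate markers (Col1a1 and Lrat) and 3 lower of 15 near cholangiocyte markers (Krt7 and Spp1). Near hepatocyte markers it called 7 of 99, 4 higher and 3 lower, and near Kupffer cell and macrophage markers 0 of 5, with 2 at an unadjusted p under 0.05. The summed scaled tags near 6 endothelial markers were 726 to 756 in control and 773 to 808 in B2_minus with Ad_Cont, and 739 to 746 and 790 to 809 with Ad_Cre. Near the 5 of 6 stellate markers with a tested region they were 433 to 468 and 400 to 414 with Ad_Cont, and 431 to 484 and 376 to 431 with Ad_Cre. Near 4 of 5 cholangiocyte markers they were 419 to 425 and 386 to 407, and 409 to 437 and 377 to 399. The hepatocyte marker sums were 2633 to 2732 and 2692 to 2780 with Ad_Cont, and 2563 to 2657 and 2708 to 2768 with Ad_Cre. Endothelial sums, which include Stab2, were thus higher, and cholangiocyte sums lower, in every B2_minus library than in every control library of the same Ad arm. Hepatocyte sums separated likewise, higher, with Ad_Cre only, and stellate sums, lower, with Ad_Cont only. How often groups of 3 libraries separate in sums over other sets of regions was not counted, so this only describes these lists. The regions of a list did not move together. In the diet average the median log2 fold change of endothelial regions was 0.0088, and -0.038 at their strongest regions. For cholangiocyte regions it was -0.11, and 0.0054 at the strongest. The part of these cell types in the 3 called ribosomal protein regions was not tested.

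At the 71 strongest regions edgeR called 0 in each of the 7 contrasts. Over all regions it called 5.78% in the diet average, and 3.36% of those overlapping a gene end. In each other contrast it called 1.13% of all regions or less, so a 0 there does not set these regions apart. For the diet averaged over both Ad arms the log2 fold changes of these 71 ran from -0.22 to 0.28 with a median SE of 0.072. An unadjusted p under 0.05 (edgeR) was found at 7 (9.86%), against 19.7% of all regions and 15.8% of those overlapping a gene end. The lowest adjusted p was 0.0833, at Rpl23 (-0.20, SE 0.074). The next was Rpl18, at 0.16 (SE 0.062; edgeR adjusted p 0.103). A missed threshold does not show that these regions were alike, and the estimates carry the SE given.

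No member region was called between Ad_Cre and Ad_Cont. In control edgeR called 0 of 187, against 0.00591% of all regions, and in B2_minus 0, against 0.00197%. Averaged over both diets it was 0, against 0.0955%. With so few calls over all regions, these counts of 0 do not set the members apart. At an unadjusted p under 0.05 there were 14, 10 and 8 members (7.49%, 5.35% and 4.28%), against 7.82%, 7.29% and 9.87% of all regions. In each, limma called 0 members, and DESeq2 called 0 of all regions and so could call no member. The lowest adjusted p at a strongest region was that of Rps3, lower with Ad_Cre in the average (-0.23, SE 0.065; edgeR adjusted p 0.106).

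A difference of the diet effect between the Ad arms was called at no member region: the interaction gave 0 members and 0% of all regions with edgeR. With limma and DESeq2 it also gave 0 of all regions, so these counts do not set the members apart. There were 12 members at an unadjusted p under 0.05 (6.42%, against 5.14% of all regions). The largest interaction was -0.94 (SE 0.29; edgeR adjusted p 0.835), in a region 7588 bp from Rps13 (chr7:116323655-116323919).

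**Figure D4:**
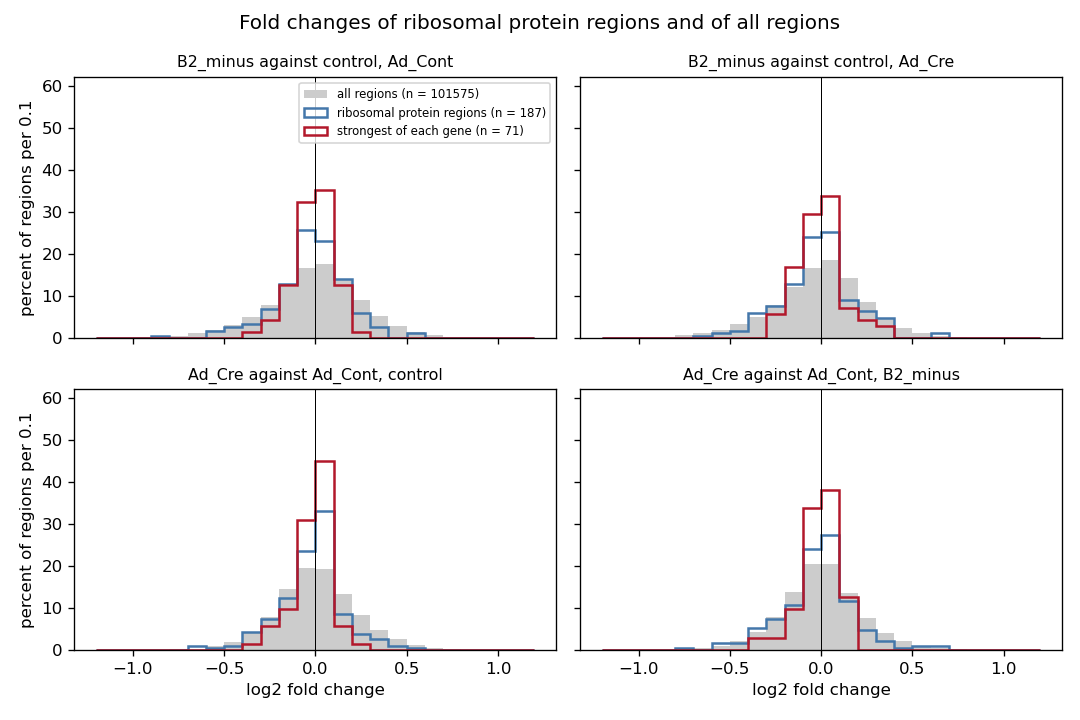
Percent of regions (y axis) per 0.1 of log2 fold change (x axis) in 4 contrasts, for all 101575 regions (grey), the 187 member regions (blue) and the strongest region of each of 71 genes (red). The red and blue outlines are centred near 0 and narrower than the grey, and the strongest regions, which have the highest counts, are the narrowest.

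None of the 3 called regions held an annotated start. Rpl10 was lower in B2_minus, in a region 25 bp outside the gene body and centred 156.5 bp upstream of the start (chrX:74270528-74270791), which covers most of the Rpl10 sequence shown above. Its 3 libraries of control with Ad_Cont gave 58.6, 59.7 and 58.3 scaled tags, and those of B2_minus with Ad_Cont 40.3, 38.4 and 45.2. With Ad_Cre, control gave 49.6, 50.7 and 49.1 and B2_minus 50.1, 47.9 and 48.1.

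With Ad_Cont every B2_minus library of this Rpl10 region was therefore below every control library, while with Ad_Cre the groups overlapped. The log2 fold change was -0.51 with Ad_Cont (SE 0.12; edgeR adjusted p 0.0146) and -0.03 with Ad_Cre (SE 0.12; edgeR adjusted p 0.943). Averaged over the arms it was -0.27 (SE 0.085; edgeR adjusted p 0.0346), and this call was lost in 10 of 12 fits that left out 1 library, with adjusted p up to 0.0814. The interaction was 0.48 (SE 0.17) and did not pass the test (edgeR adjusted p 0.945), so a difference between the arms was not shown.

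The region directly upstream, which is the strongest of Rpl10, went the other way without passing the test. It had 49.7, 57.7 and 47.5 scaled tags in control with Ad_Cont and 54.7, 57.6 and 57.9 in B2_minus with Ad_Cont, and these overlapped. With Ad_Cre it had 48.5, 50.7 and 50.8 in control and 57.4, 59.4 and 52.6 in B2_minus, which did not overlap (0.17, SE 0.11; edgeR adjusted p 0.548). The average diet difference was 0.15 (SE 0.081; edgeR adjusted p 0.301). The Rpl10 call with Ad_Cont was lost on leaving out control with Ad_Cont 2 or 3 (edgeR adjusted p 0.0562 and 0.0504) or B2_minus with Ad_Cont 1 or 2 (0.0863 and 0.0705). It was also lost with DESeq2 (adjusted p 1.00), which called 0 of all regions with Ad_Cont.

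Rpl13a, a large subunit protein with a separate role in silencing inflammatory messenger RNAs, was lower in B2_minus at the far end of the gene, 3435 bp downstream of the start (chr7:45124757-45125863). The region had 19.9, 24.9 and 16.2 scaled tags in control with Ad_Cont, 9.86, 19.2 and 15.8 in B2_minus with Ad_Cont, 21.0, 17.9 and 11.4 in control with Ad_Cre and 8.34, 15.3 and 7.25 in B2_minus with Ad_Cre. The groups overlapped in both arms, and the lowest values were near the lowest listed counts. The log2 fold change averaged over the arms was -0.57 (SE 0.18; edgeR adjusted p 0.0387).

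The strongest region of Rpl13a, centred 194.5 bp upstream of the start (chr7:45128774-45129105), had 86.3 ± 7.59, 90.2 ± 5.50, 91.9 ± 8.43 and 94.4 ± 2.48 tags in the 4 groups, a diet difference of 0.06 (SE 0.058; edgeR adjusted p 0.624). The diet call of the region at the far end was lost in 7 of 12 fits that left out 1 library, with edgeR adjusted p up to 0.166. It held in 4 of 10 other alternative settings, where the log2 fold change ran from -0.58 to -0.23.

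Rpl37a was higher in B2_minus, 5094 bp outside the gene (chr1:72718907-72719162). The libraries gave 28.7, 18.9 and 22.7 scaled tags in control with Ad_Cont, 33.2, 39.4 and 31.6 in B2_minus with Ad_Cont, 34.2, 21.9 and 30.7 in control with Ad_Cre and 35.5, 38.3 and 27.2 in B2_minus with Ad_Cre. The groups separated with Ad_Cont and overlapped with Ad_Cre. The average log2 fold change was 0.39 (SE 0.12; edgeR adjusted p 0.0384), and the call was lost in 7 of 12 fits that left out 1 library, with adjusted p up to 0.144. The start of Rpl37a differed by 0.06 (SE 0.11; edgeR adjusted p 0.823).

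**Figure D5:**
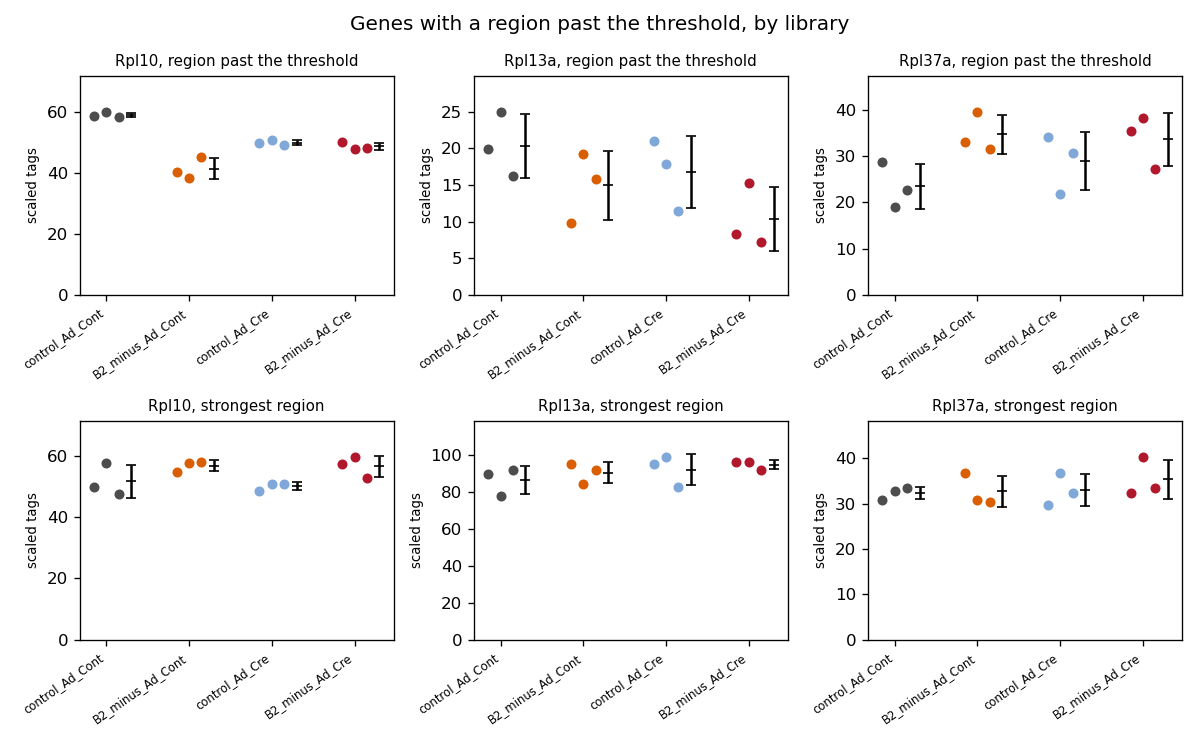
Scaled tags (y axis, from 0) in the 3 libraries of each group (x axis), with mean ± SD beside the points, for the region of Rpl10, Rpl13a and Rpl37a past the threshold (top) and the strongest region of the same gene (bottom). For Rpl10 control with Ad_Cont (58.3 to 59.7) sits above B2_minus with Ad_Cont (38.4 to 45.2), while in the strongest regions below control and B2_minus overlap, except for Rpl10 with Ad_Cre (48.5 to 50.8 against 52.6 to 59.4).

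The largest fold changes in single contrasts did not pass the test. With Ad_Cont the highest was at the called region of Rpl37a, at 30.2 tags (0.57, SE 0.18; edgeR adjusted p 0.0990), and the lowest at Rpl3, in a weak region 1758 bp from the gene (-0.87, SE 0.26; edgeR adjusted p 0.0794). With Ad_Cre the highest was inside Rps14, at 14.6 tags (0.64, SE 0.25; adjusted p 0.198 with edgeR), and the lowest at the far end of Rpl13a (-0.66, SE 0.27; edgeR adjusted p 0.231). For Ad_Cre in control the extremes were 0.55 at the Rps13 region named above and -0.68 at the far end of Rpl12 (chr2:32964017-32964335; edgeR adjusted p 0.472 and 0.441). For Ad_Cre in B2_minus they were 0.65 near Rpl12 (chr2:32967647-32968598) and -0.72 near Rpl14 (chr9:120576399-120576801). Averaged over both diets they were 0.48 inside Rpl13 (chr8:123103296-123104722) and -0.46 at the same end of Rpl12 (edgeR adjusted p 0.327 and 0.323).

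Ribosomal proteins whose symbols fall outside the rule had strongest regions of similar level. The strongest regions of Rplp0, Rplp1, Rplp2, Rpsa, Rps3a1 and Fau, the stalk proteins and others of the cytosolic ribosome, had 67.2 to 84.0 scaled tags, at percentiles 91.5 to 96.7. Of these 6 strongest regions edgeR called 0 in the diet average, against 5.78% of all regions, with adjusted p from 0.402 to 0.927. At an unadjusted p under 0.05 there were 0, against 19.7% of all regions. Of 8 paralog genes 5 had a tested region, and edgeR called 0 of their 8 regions in the diet average, with 0 at an unadjusted p under 0.05. With so few regions, counts of 0 do not set either set apart from all regions.

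Regions near other genes of ribosome production were called in shares from below to slightly above that of all regions. Near the 77 mitochondrial ribosomal protein genes, 9 of 173 regions passed the threshold for the diet averaged over both Ad arms (5.20%, against 5.78% of all regions), 3 higher and 6 lower in B2_minus. Of the 6 lower regions, 3 belonged to Mrps28, with log2 fold changes of -0.52, -0.97 and -0.55 (SE 0.16, 0.19 and 0.11). Ribosome biogenesis genes had 1 of 111 regions called (0.901%), lower at Nolc1, a nucleolar phosphoprotein (-0.63; edgeR adjusted p 0.00984). Translation factors had 5 of 145 (3.45%), 2 higher and 3 lower, with Eif4e, the cap-binding protein, at -0.67 (SE 0.18; edgeR adjusted p 0.0129).

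Among 21 regulators of ribosomal protein synthesis, 11 of 153 regions were called (7.19%), 7 higher and 4 lower in B2_minus. Larp1, the protein that binds messenger RNAs with the pyrimidine start, was higher in 3 regions. At the strongest of these (chr11:57998966-57999215) it had 82.4 ± 6.96 scaled tags in control with Ad_Cont and 95.9 ± 1.03 in B2_minus with Ad_Cont, and 85.5 ± 4.51 in control with Ad_Cre against 100.0 ± 4.13 in B2_minus with Ad_Cre (mean ± SD, n = 3 each). The average log2 fold change was 0.22 (SE 0.057; edgeR adjusted p 0.00900).

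Mtor itself was higher in B2_minus in 1 region, with 11.9 ± 3.66 tags in control against 25.3 ± 0.253 in B2_minus under Ad_Cont, and 17.4 ± 5.49 against 26.7 ± 2.12 under Ad_Cre (chr4:148472758-148473071; average log2 fold change 0.83, SE 0.16; edgeR adjusted p 0.000190). It was lower in another, chr4:148510717-148511013 (-0.29, SE 0.086; edgeR adjusted p 0.0258). Rptor, the mTOR complex subunit raptor, was lower in 2 weak regions (-0.67 and -0.64, SE 0.18 each; edgeR adjusted p 0.0105 and 0.0156). The regions of these regulators moved in both directions, and the median log2 fold change of the 153 was 0.0037.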

How the data were processed

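The 12 hepatocyte files list the peaks of 1 library each, nearly all 200 bp wide, and the deposited values are whole-number tag counts per peak (unit inferred from the values, since the files have no header). Bowtie2 and HOMER and the builds mm10 and hg38 are named in the submitters' processing notes, without versions or roles; aligner settings, read shifting, duplicate handling and peak thresholds are not given in any source used here. Peaks on chromosome Y or unplaced sequence (0.151%) were left out. Peaks were merged at 1 bp overlap, and a region's value in a library was its highest peak count. Nearest protein-coding genes came from RefSeq on GRCm38.p6, the assembly of mm10. Only regions with a peak in all 12 lists were tested, so a site lost in 1 list was not.

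Counts were tested with edgeR 4.0.16 (TMM, glmQLFit with legacy set to FALSE, then its quasi-likelihood test, run under R 4.3.3) with the 4 groups in 1 fit and Benjamini-Hochberg adjustment over all 101575 regions, threshold 0.05. Alternatives used DESeq2 1.42.0, limma 3.58.1 on log2(scaled tags + 1) with a mean-variance trend, other library sizes, merging rules and filters, and fits without each library. On simulated Poisson counts with 200 regions changed 2-fold, the fit recovered 55.0% with Ad_Cont, 59.5% with Ad_Cre and 84.0% in their average. It also called 7, 5 and 8 unchanged regions. Most real regions varied less than Poisson counts, so these shares need not hold for them. Replicate numbers were checked for pairing: none of 18 same-number pairs had a correlation of deviations over 0.1. No files held identical values (0 of 66 pairs). Sequences came from the RefSeq promoter table.

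The members, gene lists and form of the edgeR fit were chosen with earlier results of these data known. Named regions were those past the threshold in any contrast, the largest positive and negative fold change per contrast, the 5 highest, lowest, least and most variable genes, genes with no region in all 12 lists, and 10 genes fixed by role; the other genes named (Rpl23, Rpl18 and Rps3, the lists' called genes and the split starts) were chosen after their values were seen. Some genes that the rule or a list names are not reported here.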

Additional observations from a re-analysis of the deposited data

How the results depend on the processing

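Calls among the members depended on the variance model and on the scaling. With the variance bounded at Poisson, and with DESeq2, the 1 call with Ad_Cont and the 3 of the diet average became 0 and 0. Calls over all regions fell as well, from 1058 with Ad_Cont and 5867 in the diet average. The bounded fit left 7 higher and 10 lower with Ad_Cont, and 265 and 731 in the average. DESeq2 left 0 with Ad_Cont, and 11 higher and 34 lower in the average. Library sizes from listed tags gave 9 calls in the diet average, 6 for the diet with Ad_Cre and 1 for Ad_Cre averaged over both diets, where TMM gave 3, 0 and 0. Summing the peaks of a region left 1 in the diet average and 0 with Ad_Cont, with 433 of all regions higher and 1036 lower in the average. A peak in at least 3 lists gave 6 of 529 members and 0, with 3275 of all regions higher and 889 lower in the average. Peaks of at least 10 tags gave 1 of 139 in the average, with 1732 and 2655 of all regions. Leaving out 1 library moved the average between 0 and 3 and the Ad_Cont count between 0 and 1, and the cause was not tested.

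The members' median log2 fold change moved with listed tags to 0.043 (diet with Ad_Cont), 0.12 (diet with Ad_Cre), 0.079 (diet average), -0.096 (Ad_Cre in control), -0.067 (Ad_Cre average) and 0.074 (interaction), with the median of all regions moving likewise. A peak in at least 3 lists gave 0.047 with Ad_Cont and summed peaks 0.031 for the interaction. Without 1 library the medians ran from -0.034 to 0.014 with Ad_Cont, -0.033 to -0.0064 with Ad_Cre, -0.037 to -0.0012 in the diet average, -0.038 to 0.017 for Ad_Cre in B2_minus, -0.032 to -0.0004 for the Ad_Cre average and -0.024 to 0.027 for the interaction. With the replicate block the counts stayed at 1, 0 and 3, and the pairing check gave 0 of 18 same-number pairs over 0.1, with 5 of 12 libraries correlating best with their own number. The called regions of Rpl10, Rpl13a and Rpl37a kept their direction in every setting that held them. Among the alternatives other than leaving out 1 library, the diet average call held in 6 of 11 for Rpl10, 4 of 10 for Rpl13a and 6 of 11 for Rpl37a. The Rpl10 call with Ad_Cont held in 8 of 12. Sites below 6 to 8 tags were not listed, which bounds fold changes at weak regions.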
